A study of Rattus norvegicus with 16 samples.

Results

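The stable clone 4-18 was compared directly with the enriched pool shRNA3T on 8 of the 16 arrays of the series, which were chosen by their titles as the 4 arrays of the clone and the 4 arrays of the pool. All groups were rat hepatoma H35 cells, a line that grows in culture and keeps part of the liver's gene program. Cells of 4-18 had stably received the plasmid shRNA4, cells of shRNA3T were a pool transfected transiently with the plasmid shRNA3, and both plasmids encode a hairpin RNA against *Pdrg1* and a resistance to the antibiotic G418. Pool and clone were both enriched with 1.8 mg/ml G418, and the cells that gave the clone were then kept in 4 mg/ml G418 before a single colony was grown. The clone CN-10, with a negative control hairpin, and the clone 3-44, with shRNA3, are given below as levels on the remaining 8 arrays. The comparison therefore joined several differences in the design, among them another hairpin, stable in place of transient transfection and a clone in place of a pool, and it answered how far these kinds of cells with a hairpin against *Pdrg1* lay from each other. Hairpin, kind of transfection, clonal origin, antibiotic dose, scan and scan day cannot be told apart here. The arrays of each group shared a scan time that no other group had, and that of 4-18 fell on a different day. 4-18 is 1 clone, and the 4 arrays of each group were labelled as biological replicates.

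Hepatocytes are secretory cells that make most of the proteins of blood plasma. Among these are the fibrinogen chains and kininogens of the clotting system, complement, the inter-alpha-trypsin inhibitor heavy chains and the acute phase proteins, whose genes are read more strongly after inflammation through the factors C/EBP and STAT3. Hepatocytes also make glucose, bind and burn fatty acids, and convert drugs and steroids with cytochrome P450 and conjugating enzymes. PDRG1 is a small prefoldin-like protein that binds the liver methionine adenosyltransferase encoded by *Mat1a*.

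The promoters of 5 secreted-protein genes are printed here because these genes were lower in the clone, as described further on, and hold a motif of one of those factors. Each runs from 250 bases before to 50 bases after the annotated start and comes from RefSeq (GRCr8). Capitals mark matches on either strand to a C/EBP motif (TTGCNNAA) or a STAT3 motif (TTCNNNGAA).
Fga promoter (GRCr8 chr2:170671919-170672218, plus strand): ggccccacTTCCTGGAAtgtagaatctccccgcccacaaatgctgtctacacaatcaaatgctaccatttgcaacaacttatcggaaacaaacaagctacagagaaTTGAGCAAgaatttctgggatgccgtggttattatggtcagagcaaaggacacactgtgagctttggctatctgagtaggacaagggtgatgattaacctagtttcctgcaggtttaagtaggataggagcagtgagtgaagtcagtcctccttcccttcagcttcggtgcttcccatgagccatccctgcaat
Fgb promoter (GRCr8 chr2:170700826-170701125, minus strand): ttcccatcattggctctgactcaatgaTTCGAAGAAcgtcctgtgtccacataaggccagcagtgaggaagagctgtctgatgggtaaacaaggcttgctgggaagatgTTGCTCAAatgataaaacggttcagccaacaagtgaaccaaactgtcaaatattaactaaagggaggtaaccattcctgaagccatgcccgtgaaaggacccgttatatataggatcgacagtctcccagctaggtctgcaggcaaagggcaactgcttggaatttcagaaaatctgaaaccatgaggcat
Itih4 promoter (GRCr8 chr16:6086735-6087034, plus strand): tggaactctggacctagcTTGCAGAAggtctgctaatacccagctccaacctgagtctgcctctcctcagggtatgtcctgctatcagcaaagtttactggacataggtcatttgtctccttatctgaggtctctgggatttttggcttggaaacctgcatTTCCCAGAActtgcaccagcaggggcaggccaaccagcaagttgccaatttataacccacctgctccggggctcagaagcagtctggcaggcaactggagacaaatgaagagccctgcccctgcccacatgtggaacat
Serpina3n promoter (GRCr8 chr6:129088142-129088441, plus strand): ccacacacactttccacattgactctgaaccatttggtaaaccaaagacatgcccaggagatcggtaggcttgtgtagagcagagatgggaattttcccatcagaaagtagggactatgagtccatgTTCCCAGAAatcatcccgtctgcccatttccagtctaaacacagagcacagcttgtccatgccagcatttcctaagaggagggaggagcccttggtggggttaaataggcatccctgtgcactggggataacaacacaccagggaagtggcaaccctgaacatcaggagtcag
C3 promoter (GRCr8 chr9:2201290-2201589, minus strand): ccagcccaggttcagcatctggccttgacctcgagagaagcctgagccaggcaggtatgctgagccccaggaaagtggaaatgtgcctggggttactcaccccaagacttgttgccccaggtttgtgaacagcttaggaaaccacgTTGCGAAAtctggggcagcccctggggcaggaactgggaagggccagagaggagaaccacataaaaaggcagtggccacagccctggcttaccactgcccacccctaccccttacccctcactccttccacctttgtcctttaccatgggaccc
*Fga*, *Fgb* and *Itih4* held both motifs, *C3* held the C/EBP motif and *Serpina3n* held the STAT3 motif. For a count, 20 genes lower in 4-18 were taken from the lists of acute phase, plasma carrier and coagulation genes. Secreted proteins among the 12 largest falls were added, and the carrier list also holds hepatocyte enzymes such as *Cps1*. Of the 20 genes, 16 had a promoter in the table, and 9 of these held the C/EBP motif and 5 the STAT3 motif. The 9 include the near-identical kininogen copies *Kng1*, *Kng1l1* and *Kng2*. Among all 27457 promoters 10.5% held the C/EBP motif and 8.68% the STAT3 motif. Among the 61 members of the same lists in the table, changed or not and with no gene added, the shares were 34.4% and 14.8%. The C/EBP motif was thus frequent in these lists as a whole. *Fgg*, *Itih3*, *Cps1*, *Serpina1*, *Gc* and *F10*, also lower in 4-18, held neither the C/EBP nor the STAT3 motif in this window.

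The level of *Pdrg1*, the targeted gene, did not separate clone from pool. Its probe (chr3:143353382-143353441, minus strand, rn4) read 11.57, 13.33, 13.34 and 13.25 on the arrays of 4-18 and 12.39, 12.90, 12.97 and 12.90 on those of shRNA3T, as normalized log2 intensity. Replicate 1 was the lowest array of each group, also in CN-10 and 3-44, and clone and pool overlapped. The log2 fold change of 4-18 against shRNA3T was 0.08 (standard error 0.34, limma adjusted p = 0.913), and the two-sided exact permutation test over 4 and 4 arrays gave p = 0.971. Without replicate 1 of 4-18 the difference was 0.52 (limma adjusted p = 0.14), and without replicate 1 of every group 0.38 (limma adjusted p = 0.00973). *Pdrg1* read 13.41, 13.88, 13.51 and 13.77 in CN-10, so that replicates 2 to 4 of 4-18 lay little below this control and its lower mean (12.87 against 13.64) rested largely on replicate 1. The mean in 3-44 was 12.65. These levels come from the array probe alone. By quantitative PCR the paper reports less RNA of the targeted gene in both silenced clones than in the control clone.

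Between 53.1% and 64.1% of gene spots were well above background on the arrays of 4-18 and between 64.7% and 70.9% on those of shRNA3T, and no spot was saturated. Replicate 2 of 4-18 stood apart by its negative controls, which varied by 10.6 intensity units (SD) against 2.01 to 3.92 on the other 7 arrays. Replicate 4 of 4-18 held 2 spots with a local background up to 9216 units above their signal, and the 10th percentile of its background-corrected log2 values was 8.64 with these spots and 6.27 without them. Correlations between arrays over all probes were 0.987 to 0.992 within 4-18, 0.993 to 0.998 within shRNA3T and 0.977 to 0.986 between them. Of 26 hepatocyte markers 22 passed background on each of the 8 arrays. The mean level of all 26 lay between 11.89 and 12.01 on the arrays of 4-18 and between 12.48 and 12.60 on those of shRNA3T. The means over the markers of leukocytes, endothelium, stellate cells and cholangiocytes lay between 6.603 and 7.38, and levels of different probes cannot be set against each other. Of these 57 markers 28 were not well above background on any of the 8 arrays, among them *Ptprc*, *Cd3e*, *Pecam1*, *Dcn*, *Lum*, *Krt7* and *Krt19*, and 11 were well above it on all 8. The latter were *Cd14*, *Itgam*, *Lyz2*, *Fcer1g* and *Laptm5* of leukocytes, *Cdh5*, *Vwf* and *Esam* of endothelium, *Col1a1* of stellate cells, and *Muc1* and *Cd24* of cholangiocytes, with *Cd24* at 14.45 in 4-18 and 14.19 in shRNA3T and *Cd14* at 9.65 and 9.82. In an RNA extract from a culture, fewer cells of a type and less RNA per cell cannot be told apart.

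A gene was called at an adjusted p under 0.05 in the limma fit together with a difference of 2-fold or more. In this way 1277 of 26269 gene names (4.86%) were called, 522 higher (1.99%) and 755 lower (2.87%) in 4-18. When each gene was read by 1 probe, that with the highest mean, 1198 genes (4.56%) were called, 489 higher (1.86%) and 709 lower (2.7%). All counts of lists below use this probe. With no fold limit 5391 genes (20.5%) passed by this probe, 2963 higher and 2428 lower, and the arrays of the groups did not overlap for 5924 genes (22.6%). The median log2 fold change over all genes was 0.01. Among the called genes it was 1.23 for the higher and -1.32 for the lower ones, and 48 genes rose and 74 fell by more than 4-fold. For 350 of the 489 higher genes the mean of CN-10 lay nearer the pool than the clone, and for 339 that of 3-44 did. For the 709 lower genes these counts were 585 and 482. The means of CN-10 and 3-44 were both nearer the pool for 720 of the 1198 genes (303 higher and 417 lower). The mean of 4-18 lay beyond those of all other groups for 1085, and the mean of the pool did so on the opposite side for 739. These genes were chosen for a gap between 4-18 and the pool, which favours these groups as the extremes. No share over all genes is given for these places, so the counts do not tell whether 4-18 stands apart. Of 226 called genes with several probes well above background, the probes of 172 all had 1 direction. Without replicates 2 and 4 of 4-18 together, 1679 genes were called, 727 higher and 952 lower. These counts depended on the scaling of the arrays, and with the arrays scaled to their 75th percentile in place of quantile normalization 13314 genes were higher and 580 lower.

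The largest rise was that of *Lcp1*, which encodes L-plastin, an actin-bundling protein known from leukocytes (chr15:56091784-56091843, rn4). It read 11.92, 13.27, 13.41 and 13.41 in 4-18 and 7.75, 7.64, 7.55 and 7.48 in shRNA3T, a 42.1-fold difference (log2 fold change 5.40, standard error 0.28, limma adjusted p = 6.47e-09). The arrays lay far apart, and replicate 1 was the lowest of the clone. The mean was 7.79 in 3-44, near the pool, and 8.93 in CN-10, above the pool (7.60) and far below 4-18. *Ptprc*, the common leukocyte antigen CD45, was at 6.29 in 4-18 and 6.26 in shRNA3T, not well above background in either. *Slc22a12*, which encodes the urate transporter URAT1 of the kidney, read 10.27, 11.06, 11.07 and 10.59 in 4-18 (chr1:209320994-209321053, rn4). In the pool no array showed it well above background, and the difference was at least 21.2-fold (limma adjusted p = 3.28e-11). Such a bound divides the mean of the brighter group by that of a floor in the dimmer group, which on each array is the dimmest signal still detected above background or, if larger, the signal of the probe.

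*Wnt16*, a secreted signal of the WNT family, read 10.87, 10.93, 10.69 and 10.84 in 4-18 and 6.61, 6.91, 6.86 and 6.87 in shRNA3T (log2 fold change 4.02, standard error 0.11, limma adjusted p = 5.93e-12). The arrays of a group lay close together and the groups 16.2-fold apart. *Upp2*, a liver uridine phosphorylase, was 15.02-fold higher, *Chia*, an acidic chitinase, at least 12.8-fold higher and *Bcat2*, the mitochondrial branched-chain aminotransferase, 9.90-fold higher. *Cyp1a2*, a P450 enzyme of hepatocytes that oxidizes caffeine and aromatic amines, read 10.91, 10.86, 10.73 and 10.49 in 4-18 and 7.56, 7.47, 7.56 and 7.56 in the pool. It was 9.26-fold higher (limma adjusted p = 4.74e-11) with no overlap. *Sptlc3*, a subunit of the enzyme that starts sphingolipid synthesis, was 9.08-fold higher and its second probe had a log2 fold change of 2.93. *Tmem164* rose 27.4-fold on 1 probe while its second probe was below background in both groups. *Mro*, *Rhoh*, a small GTPase of blood cells, and *Nptx1*, a neuronal pentraxin, made up the 12 largest rises, at 12.6-fold, 9.03-fold and 8.81-fold.

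**Figure D1:**
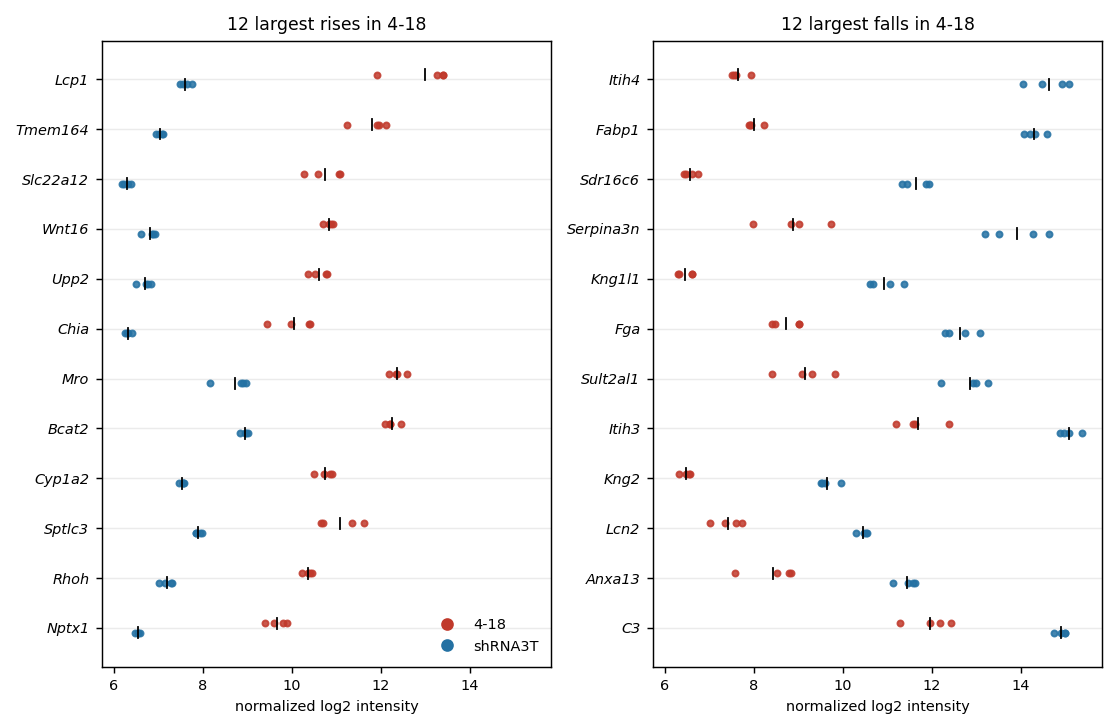
Normalized log2 intensity (horizontal axis) of the 12 genes with the largest rise (left) and the 12 with the largest fall (right) in 4-18 against shRNA3T, among genes with a symbol and a signal above background throughout their higher group; each point is 1 array, 4 per group, and black ticks are group means. The points of the groups do not overlap for any of the 24 genes, which the rule for choosing them required, and *Itih4* and *Fabp1* lie farthest apart.

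The largest fall was that of *Itih4*, an inter-alpha-trypsin inhibitor heavy chain and acute phase protein that the liver secretes (chr16:6334720-6334779, plus strand, rn4). It read 7.94, 7.59, 7.54 and 7.51 in 4-18 and 14.47, 14.05, 14.92 and 15.08 in shRNA3T, a 126-fold difference (log2 fold change -6.98, standard error 0.45, limma adjusted p = 6.33e-08). No clone array came within 6 log2 units of a pool array. CN-10 (9.35) and 3-44 (12.05) lay between them, so the level in the pool was the highest of the 4 groups. *Itih3*, the neighbouring heavy chain gene on chromosome 16, read 11.57, 11.63, 11.19 and 12.39 in 4-18 and 14.89, 14.97, 15.08 and 15.38 in the pool. It was 10.4-fold lower (limma adjusted p = 2.68e-08).

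*Fabp1*, the liver fatty acid binding protein, read 8.22, 7.90, 7.94 and 7.92 in 4-18 and 14.59, 14.21, 14.06 and 14.32 in shRNA3T (chr4:104413796-104413855, rn4). The difference was 78.9-fold (log2 fold change -6.30, standard error 0.15, limma adjusted p = 3.82e-12). The clone was low and even on all arrays. In 3-44 *Fabp1* stood at 14.04, like the pool, and in CN-10 at 9.62. *Sdr16c6*, a short-chain dehydrogenase, read 11.93, 11.87, 11.45 and 11.32 in the pool and did not pass background on the arrays of 4-18, at least 31.9-fold lower (limma adjusted p = 4.34e-11). *Sult2al1*, a sulfotransferase of the bile acid and steroid group, was 12.9-fold lower, and *Anxa13*, an epithelial annexin, 8.11-fold lower.

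Secreted acute phase and complement genes were mostly lower among those that moved. Of 34 measured members of this list 10 fell and 2 rose (29.4% and 5.88%, against 2.70% and 1.86% of all genes), and the other 22 were not called. The list median was -0.22, against 0.01 over all genes, and it was positive in 2 of 31 alternative settings, at 0.13 and 0.06, both with the arrays scaled to the 75th percentile. Without replicates 2 and 4 of 4-18 again 10 members fell and 2 rose. *Serpina3n*, a serine protease inhibitor, read 9.004, 9.73, 7.97 and 8.84 in 4-18 and 13.51, 13.20, 14.28 and 14.64 in shRNA3T. It was 32.4-fold lower (log2 fold change -5.02, standard error 0.38, limma adjusted p = 3.32e-07), and the lowest pool array was more than 3 log2 units above the highest clone array. The mean of *Serpina3n* was 8.89 in 4-18, 9.22 in CN-10, 11.75 in 3-44 and 13.91 in shRNA3T. The clone thus lay near the control clone, and the pool was the highest of the groups. *C3*, the central complement component, read 11.96, 11.29, 12.42 and 12.18 against 14.99, 14.74, 14.90 and 14.999, 7.70-fold lower (limma adjusted p = 3.16e-07). *Lcn2*, which encodes the iron-scavenging lipocalin, was 8.17-fold lower and stood at 7.42 in 4-18 and above 10 in the other 3 groups (10.45 in shRNA3T, 11.29 in CN-10 and 11.15 in 3-44).

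All 3 chains of fibrinogen, the precursor of fibrin, fell, by different amounts. *Fga* read 8.41, 9.02, 8.48 and 9.02 in 4-18 and 12.39, 12.30, 12.74 and 13.08 in the pool, 14.9-fold lower (limma adjusted p = 4.25e-07). *Fgb* read 13.78, 13.57 and 13.80 on 3 clone arrays, its spot on replicate 4 having an outlier mark, against 15.68, 15.13, 15.60 and 15.80, 3.57-fold lower (limma adjusted p = 2.76e-06). *Fgg*, named after its values were seen as are *Saa4*, *C9* and *C5*, was 2.72-fold lower (limma adjusted p = 9.65e-05). The fold of the alpha chain was the largest, and all 3 had groups without overlap. The mean of each chain was also lower in 4-18 than in the other clones, with *Fga* at 9.98 in CN-10 and 11.64 in 3-44. *Saa4*, a constitutive serum amyloid A, was 7.45-fold lower and *C9*, the last complement component, 4.42-fold lower. The members that rose were *Hamp*, which encodes the iron hormone hepcidin, 3.57-fold higher, and *C5*, 2.15-fold higher. *Hamp* read 8.81, 8.97, 8.68 and 8.81 in 4-18 and 7.0, 7.03, 6.96 and 6.92 in the pool, yet 11.10 in CN-10 and 10.61 in 3-44, so both groups compared here were low beside the other clones.

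The kininogens, from which bradykinin is cut, were the next group. *Kng1l1* read 10.61, 10.68, 11.07 and 11.38 in shRNA3T and did not pass background on the arrays of 4-18, at least 20.3-fold lower (limma adjusted p = 2.04e-08). *Kng2* was at least 8.28-fold lower (limma adjusted p = 1.07e-08), and *Kng1* was 7.46-fold lower with a low replicate 1 in the pool (10.04 against 11.85 to 12.20). Rat kininogen genes are near-identical copies, so the probes may read each other's transcripts. In the list of coagulation factors and serpins 3 of 28 members fell (10.71%) and none rose, against 2.70% lower and 1.86% higher among all genes. The list median was -0.08 and turned positive in 2 of 31 alternatives. Over alternatives with the same limits up to 10 members were called higher and 2 to 8 lower. Besides *Kng1* the members that fell were *Serpina1*, alpha-1 antitrypsin, 2.24-fold lower, and *F10*, coagulation factor X, at least 2.21-fold lower. The call of *F10* was lost in 4 alternatives (log2 fold change -2.93 to -0.16). *Serpina1* missed the 2-fold limit without replicate 2 of 4-18 (log2 fold change -0.97).

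Among plasma carriers and hepatocyte markers 9 of 26 fell and 1 rose (34.6% and 3.85%), and 16 were not called, against 2.70% lower and 1.86% higher among all genes. The median was -0.49 and stayed negative in all 31 alternatives (-1.41 to -0.41). *Tf*, transferrin, read 14.25, 15.30, 15.13 and 15.01 in 4-18 and 16.11, 17.30, 15.64 and 17.58 in the pool, 3.32-fold lower (limma adjusted p = 0.0115) with a wide spread in the pool. *Cps1*, the first enzyme of the urea cycle, read 10.82, 9.99, 10.53 and 10.55 against 11.92, 11.88, 11.91 and 11.81, 2.65-fold lower (limma adjusted p = 9.1e-06). *Serpina6*, which encodes the glucocorticoid carrier transcortin, was the member that rose. It read 11.81, 11.53, 12.36 and 12.47 in 4-18 and 9.80, 9.63, 9.55 and 10.07 in the pool, 4.86-fold higher (limma adjusted p = 1.19e-06), and 6.89 in CN-10. Some of the main plasma proteins were not called. *Alb*, albumin, had a log2 fold change of 0.01 (limma adjusted p = 0.988) and overlapping groups, *Ttr*, transthyretin, 0.55 (limma adjusted p = 0.271) and *Afp*, the fetal counterpart of albumin, 0.72 (limma adjusted p = 0.00031, under the 2-fold limit). The fall in secreted proteins was thus uneven within the list.

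None of the 25 liver transcription factors was called in either direction, against 4.56% of all genes, while over alternatives with the same limits up to 5 were called higher and up to 3 lower. *Hnf4a* had a log2 fold change of -0.52 (limma adjusted p = 0.0932), *Cebpa* 0.27 (limma adjusted p = 0.21) and *Cebpb* -0.95 (limma adjusted p = 0.00235, just short of 2-fold). *Cebpb* was called lower in 7 of 31 alternatives, 2 of them with a looser fold limit, with -1.18 without replicate 4 of 4-18. With no fold limit 5 members of this list were higher and 4 lower. *Stat3* (log2 fold change -0.18, limma adjusted p = 0.824) and its feedback inhibitor *Socs3* (0.21, limma adjusted p = 0.523) were not called, and their arrays overlapped.

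**Figure D2:**
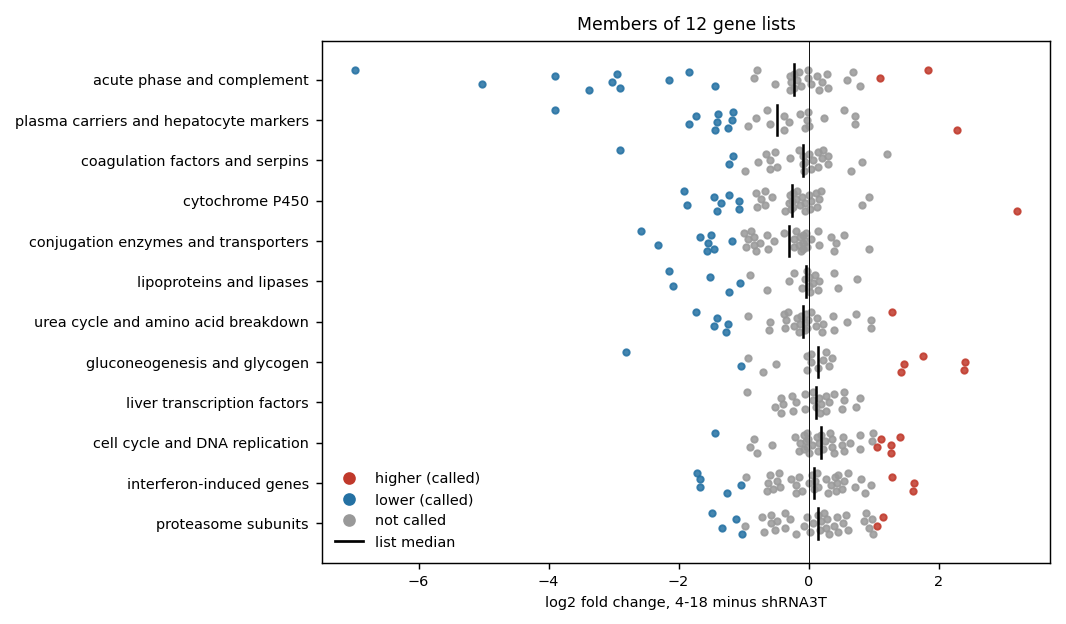
Log2 fold change of 4-18 against shRNA3T (horizontal axis) for the measured members of 12 gene lists; each point is 1 gene, red if called higher, blue if called lower and grey if not called, and black ticks are list medians. Blue points lead in the secreted-protein, P450, conjugation and lipoprotein lists, while gluconeogenesis holds 5 red and 2 blue points and liver transcription factors hold grey points only.

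Among enzymes that convert drugs, steroids and fatty acids most of the called genes were lower, with *Cyp1a2*, described above, the exception. Of 37 P450 genes 8 fell and 1 rose (21.6% and 2.70%), and of 40 conjugating enzymes and transporters 8 fell (20%) and none rose, against 2.70% lower and 1.86% higher among all genes. Their medians were -0.25 and -0.30. The first was positive in 3 alternatives, up to 0.78 at the 75th percentile scaling, while the second stayed negative in all 31 alternatives. *Ugt2b1*, a glucuronosyltransferase, read 9.64, 9.01, 9.15 and 9.42 in 4-18 and 12.25, 11.77, 11.68 and 11.81 in the pool, 5.96-fold lower (limma adjusted p = 4.58e-08). *Gstm3*, a glutathione transferase, was 4.99-fold lower, with a log2 fold change of -4.09 to -1.58 over the alternatives, and its second probe did not pass background on the clone arrays. *Cyp4a1*, a fatty acid omega-hydroxylase, was 3.78-fold lower and *Cyp4a2* 2.75-fold lower, both well above background on 2 of the 4 clone arrays, with log2 fold changes from -3.38 to -1.08 and from -3.42 to -0.60 over the alternatives. *Cyp3a18*, a steroid hydroxylase, was at least 3.29-fold lower (log2 fold change -4.34 to -0.87 over the alternatives). *Abcc2*, the pump that moves conjugates into bile and named after its values were seen, read 11.84 to 11.88 on the 4 clone arrays and 13.30 to 13.55 on the pool arrays, 2.91-fold lower (limma adjusted p = 1.46e-09). These families hold close copies, and their probes may cross-read.

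Of 22 lipoprotein and lipase genes 5 fell (22.7%, against 2.70% of all genes), none rose and 17 were not called. The list median was -0.03 and turned positive in 3 alternatives. *Apoa1*, the main protein of high-density lipoprotein, read 7.98, 7.49, 8.67 and 8.03 in 4-18 and 10.02, 10.23, 10.20 and 10.32 in the pool, 4.45-fold lower (limma adjusted p = 1.7e-05). *Apoc3*, an inhibitor of lipoprotein clearance, was 4.23-fold lower and *Apob*, the scaffold of low-density lipoprotein, 2.86-fold lower, with the spot of pool replicate 1 left out. The call of *Apob* was lost when replicates 2 and 4 of 4-18 were left out together (log2 fold change -0.96). *Angptl4*, a lipase inhibitor, was 2.35-fold lower in 4-18 than in the pool, and its levels in CN-10 (7.51) and 3-44 (9.29) were lower than in both. *Acsl4*, which activates arachidonic acid and lies on chromosome X, was named after its values were seen and was 4.49-fold lower (limma adjusted p = 6.15e-09).

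Gluconeogenesis and glycogen genes moved in both directions. Of 19 members 5 rose and 2 fell (26.3% and 10.5%, against 1.86% and 2.70% of all genes), and the median of 0.15 turned negative in 2 alternatives. *Pck1*, cytosolic phosphoenolpyruvate carboxykinase, read 11.41, 11.29, 11.06 and 12.01 in 4-18 and 14.25, 14.0002, 14.22 and 14.51 in shRNA3T, 6.98-fold lower (log2 fold change -2.80, standard error 0.22, limma adjusted p = 4.78e-07). *Pck2*, the mitochondrial form, was 2.06-fold lower, and missed the limit without replicate 3 of 4-18 (log2 fold change -0.74) and without replicates 2 or 3 of shRNA3T. The fructose-bisphosphatases, later in the pathway, were higher. *Fbp1*, the liver form, read 12.87, 12.58, 12.54 and 12.54 in 4-18 and 11.31, 10.76, 10.71 and 10.72 in the pool, 3.37-fold higher (limma adjusted p = 4.49e-07). *Fbp2*, the muscle form, read 15.66, 16.53, 16.08 and 16.13 against 14.01, 13.63, 13.61 and 13.55, 5.27-fold higher (limma adjusted p = 7.69e-08). The 2 genes lie side by side on chromosome 17 (rn4 starts 7817936 and 7841587 of their probes), and neither overlapped between groups.

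*Ppargc1a*, the coactivator PGC-1alpha that turns on gluconeogenic and mitochondrial genes, read 8.71, 8.81, 8.15 and 8.65 in 4-18 and did not pass background on the pool arrays, at least 4.76-fold higher (limma adjusted p = 1.68e-09). It was at 6.26 in CN-10 and 6.22 in 3-44, the level of the pool. *Pc*, pyruvate carboxylase, was 2.75-fold higher and *Gys2*, liver glycogen synthase, 2.68-fold higher, both named after their values were seen. *Pfkp*, a phosphofructokinase of glycolysis, was 3.28-fold higher, as the 1 member called of 25 in the glycolysis list (4%, against 4.56% of all genes). *Irs2*, an insulin receptor substrate, read 10.77, 11.17, 10.62 and 11.89 against 13.51, 13.40, 13.50 and 13.43, 5.08-fold lower (limma adjusted p = 1.91e-06).

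In amino acid breakdown and the urea cycle 5 of 34 genes fell and 1 rose (14.7% and 2.94%, against 2.70% and 1.86% of all genes). *Hal*, histidine ammonia-lyase, was 3.31-fold lower and *Bckdhb*, a subunit of the branched-chain keto acid dehydrogenase, 2.73-fold lower, while *Asl*, argininosuccinate lyase, was 2.44-fold higher. *Slc7a2*, a cationic amino acid transporter, was 3.68-fold lower. In the methionine cycle *Mat2a*, the extrahepatic methionine adenosyltransferase, read 10.14, 10.06, 10.27 and 10.26 in 4-18 and 8.78, 9.41, 9.23 and 9.28 in the pool, 2.01-fold higher (limma adjusted p = 6.86e-05). This sat at the 2-fold limit. It was under the limit without replicate 1 of shRNA3T (log2 fold change 0.87) or replicate 3 of 4-18 (0.98), and its second probe had a log2 fold change of -0.17 (limma adjusted p = 0.792). *Mat1a*, the liver enzyme, read 11.28, 11.61, 10.81 and 10.50 against 11.95, 12.07 and 11.91 on 3 pool arrays (log2 fold change -0.93, limma adjusted p = 0.074). It was not called, although the groups did not overlap, and was called lower in 4 of 31 alternatives, with -1.11 without replicate 2 of 4-18.

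Of the other genes that the study names for these arrays, *Cxcl1* and *Sstr2* were called. *Cxcl1*, a chemokine that draws neutrophils, read 8.47, 8.51, 9.02 and 8.70 in 4-18 and 9.82, 9.93, 10.05 and 9.77 in the pool, 2.32-fold lower (limma adjusted p = 2.53e-05). *Sstr2*, a somatostatin receptor, read 9.57, 9.34, 9.32 and 9.46 against 8.35, 8.04, 7.98 and 7.96, 2.53-fold higher (limma adjusted p = 2.17e-07), and its second, dim probe had a log2 fold change of 0.30. *Adm*, adrenomedullin, was just short of the limit (log2 fold change -0.99, limma adjusted p = 0.0459) and was called lower in 12 of 31 alternatives, 2 of them with a looser fold limit. *Sema3c* (-0.69) and *Acadm* (0.31) passed the adjusted p but were under 2-fold. *Aacs* (-0.06), *Lipc* (0.10), *Id1* (0.06) and *Ctgf* (-0.04) had adjusted p values from 0.609 to 0.839 in the limma fit. *Ctgf* was well above background on 2 of the 4 pool arrays and no clone array, so its difference cannot be read. *Id1* stood at 9.33 to 10.17 in 4-18 and 9.60 to 10.01 in the pool, and at 12.56 in CN-10 and 11.39 in 3-44.

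**Figure D3:**
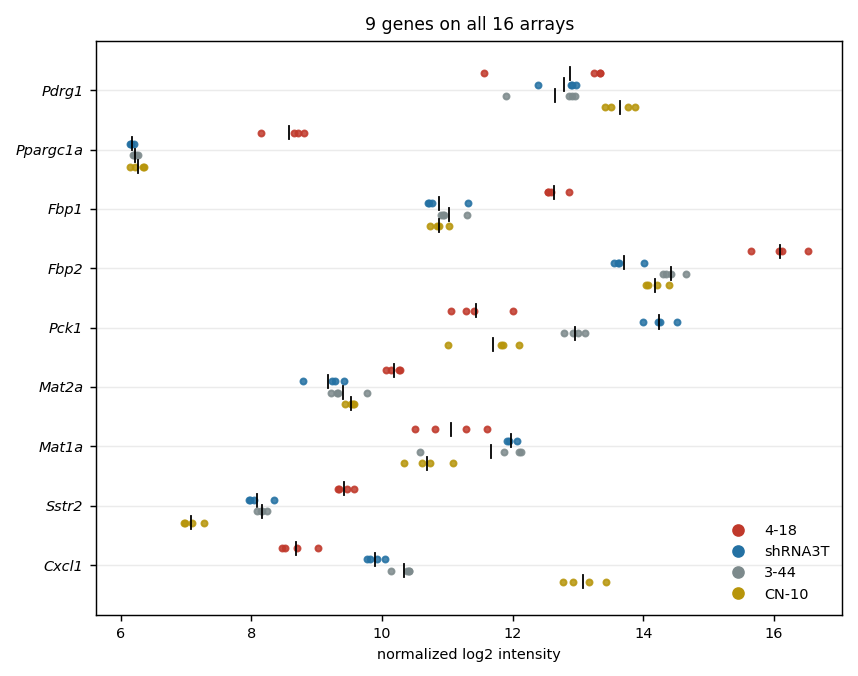
Normalized log2 intensity (horizontal axis) of 9 genes on all 16 arrays; each point is 1 array, colours are the 4 groups and black ticks are group means. *Ppargc1a*, *Fbp1* and *Fbp2* are high in 4-18 alone, *Pck1* is high in shRNA3T, and the 4-18 and shRNA3T points of *Pdrg1* overlap.

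Interferon-induced genes split. Of 41 members 3 rose and 5 fell (7.32% and 12.2%, against 1.86% and 2.70% of all genes), with a median of 0.09 that turned negative in 3 alternatives. *Mx1*, an antiviral GTPase, read 7.64, 7.47, 7.47 and 7.21 in 4-18 and 8.83, 9.38, 9.23 and 9.18 in the pool, 3.27-fold lower (limma adjusted p = 2.96e-06). *B2m*, the light chain of MHC class I, was 3.19-fold lower, with 11.02 to 11.55 on the clone arrays and 12.86 to 12.95 on the pool arrays. *Ifi44* read 10.84, 10.41, 10.56 and 10.57 against 8.72, 9.21, 8.92 and 9.04, 3.08-fold higher (limma adjusted p = 9.75e-06). *Dhx58*, an RNA sensor, was 3.06-fold higher and *Rsad2*, viperin, 2.43-fold higher, both named after their values were seen. *Ifi27* was lower in the limma fit (adjusted p = 0.0158), a call that was lost without replicate 1 of 4-18 (adjusted p = 0.0813) and without replicate 4 of shRNA3T (adjusted p = 0.0504).

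Of 39 cell cycle and DNA replication genes 5 rose and 1 fell (12.8% and 2.56%, against 1.86% and 2.70% of all genes). Without replicates 2 and 4 of 4-18 these were 8 and 1, while without replicate 1 of every group 3 of the 5 rises were under 2-fold, those of *Tyms* (log2 fold change 0.87), *Ccna2* (0.96) and *Rrm1* (0.86). The second probe of *Ccna2* had a log2 fold change of 0.16. The median was 0.19, negative in 2 alternatives. *Top2a*, DNA topoisomerase II alpha, read 13.05, 12.73, 12.98 and 12.80 in 4-18 and 10.98, 11.90, 11.64 and 11.43 in the pool, 2.65-fold higher (limma adjusted p = 1.14e-05), and its second probe had a log2 fold change of 0.58. *Mcm5*, a subunit of the replicative helicase, was 2.40-fold higher. CN-10 and 3-44 stood higher than the pool for both, at 13.08 and 12.93 for *Top2a* and 11.38 and 11.47 for *Mcm5*, so the pool was the lowest of the 4 groups. *Tyms*, thymidylate synthase, was 2.42-fold higher with a low replicate 1 of the pool (8.49 against 9.74 to 10.02), and was under 2-fold without that array (log2 fold change 0.93). *E2f1*, a transcription factor of the cycle, was 2.72-fold lower on 1 probe while its second had a log2 fold change of -0.30. None of 23 p53 targets was called, against 4.56% of all genes.

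Stress and metal genes gave a few rises. *Hmox1*, heme oxygenase, read 12.22, 12.56, 11.999 and 12.13 in 4-18 and 10.74, 10.84, 10.83 and 11.05 in the pool, 2.57-fold higher (limma adjusted p = 2.05e-05). *Gpx3*, a secreted glutathione peroxidase, was 3.65-fold higher and *Akr1b8*, an aldose reductase, 3.13-fold lower, and the list of NRF2 targets and glutathione genes held 4 rises and 2 falls of 28 (14.3% and 7.14%, against 1.86% and 2.70% of all genes). The metallothioneins *Mt1a* and *Mt2A* were 2.28-fold and 2.66-fold higher than in the pool, and a second *Mt2A* probe had a log2 fold change of 0.71. CN-10 was near 4-18 for both, at 16.29 against 16.32 for *Mt1a* and 13.97 against 14.23 for *Mt2A*. *Ddit3*, the stress factor CHOP, was 2.58-fold higher, and *Sdf2l1*, a chaperone of the endoplasmic reticulum, 3.39-fold higher. *Hspa1b*, an inducible HSP70, was 2.81-fold higher, as the 1 member called of 20 heat shock genes (5%, against 4.56% of all genes).

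Lysosome and autophagy genes held 3 rises and 2 falls of 39 (7.69% and 5.13%, against 1.86% and 2.70% of all genes). *Tfeb*, the transcription factor that turns on lysosomal genes, read 12.24, 12.16, 12.04 and 11.89 in 4-18 and 9.67, 9.54, 9.47 and 9.43 in shRNA3T, 5.88-fold higher (limma adjusted p = 3.75e-08). *Gpnmb*, a lysosomal glycoprotein, was 3.85-fold higher in 4-18 than in the pool, though CN-10 was higher still (12.97 against 11.60 in 4-18). *Lamp2*, a lysosomal membrane protein, was 2.44-fold lower.

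Proteasome genes held 2 rises and 4 falls of 39 (5.13% and 10.3%, against 1.86% and 2.70% of all genes), and 6 and 5 without replicates 2 and 4 of 4-18. *Psmb5*, a catalytic subunit, read 13.998, 14.17, 13.77 and 13.63 in 4-18 and 15.74, 15.33, 15.27 and 15.18 in the pool, 2.81-fold lower (limma adjusted p = 2.05e-06). *Psmc6* and *Psme1* were 2.52-fold and 2.16-fold lower, and *Psmd6* had a log2 fold change of -1.03. All 4 genes lie on chromosome 15. The genes that rose were *Psmc5* (log2 fold change 1.05) on chromosome 10 and *Psmb4* (1.15) on chromosome 2. *Psmb4* was under 2-fold without replicate 2 of shRNA3T (0.78) and *Psmc6* without replicate 1 of every group (-0.97). Of 77 cytosolic ribosomal protein genes 1 was called, and it was lower (1.3%, against 2.70% of all genes). Over alternatives with the same limits 0 to 33 of them were called lower. Of 65 respiratory chain genes 2 were higher and 2 lower (3.08% each, against 1.86% and 2.70% of all genes).

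The genes called were spread unevenly over the chromosomes. For 17058 probes mapped to rn4 and detected above background throughout at least 1 of the groups, 2.93% were higher and 4.4% lower in 4-18. On chromosome 10, 113 of 1390 probes were higher (8.13%) and 36 lower (2.59%), with a median log2 fold change of 0.18. On chromosome 15, 60 of 500 were lower (12%) and 11 higher, with a median of -0.27, and on chromosome 16, 54 of 527 were lower and 8 higher, with a median of -0.24. On chromosome X, 53 of 608 were lower (8.72%) and 12 higher, with a median of -0.16. The medians of the other autosomes lay between -0.02 and 0.04.

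Every clone array showed this. The median difference from the pool mean was 0.20, 0.22, 0.19 and 0.17 on chromosome 10 for the 4 arrays of 4-18, then -0.28, -0.30, -0.25 and -0.26 on chromosome 15 and -0.26, -0.27, -0.21 and -0.23 on chromosome 16. The pool arrays stayed between -0.03 and 0.06 on these chromosomes. CN-10 and 3-44, set against the same pool arrays, had medians of -0.01 and 0.00 on chromosome 10, 0.04 and 0.07 on chromosome 15, 0.06 and 0.03 on chromosome 16, and 0.02 and 0.01 on chromosome X. Relative to the other 17 autosomes the medians of 4-18 kept their sign in all 31 alternatives, at 0.15 to 0.24 for chromosome 10, -0.36 to -0.21 for 15, -0.37 to -0.22 for 16 and -0.24 to -0.13 for X. The number of chromosome copies in these cells was not measured, and its part in these values was not tested.

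**Figure D4:**
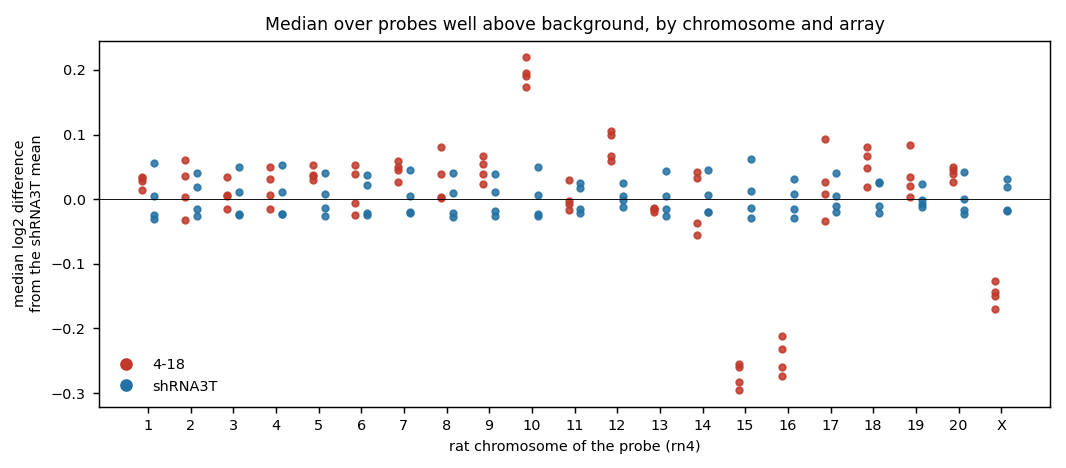
Median log2 difference from the shRNA3T mean (vertical axis) over probes well above background, by rat chromosome (horizontal axis); each point is 1 array, red for 4-18 and blue for shRNA3T. All 4 arrays of 4-18 lie at 0.17 or above on chromosome 10 and below -0.12 on chromosomes 15, 16 and X, while the other chromosomes lie near 0 in both groups.

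Within chromosome 10 the rise lay in the distal part. Below 60 Mb, a division made after the values were seen, 654 probes had a median of 0.01 with 19 higher and 24 lower, and from 60 Mb on 736 probes had a median of 0.34 with 94 higher and 12 lower. Genes there, named after their values were seen apart from *Nptx1* and *Top2a*, included *Arsg*, a lysosomal sulfatase, which read 10.95, 10.42, 11.08 and 10.77 in 4-18 and 8.62, 8.44, 8.22 and 8.18 in the pool (5.43-fold higher, limma adjusted p = 3.21e-08). *Hsd17b1*, an estradiol-forming dehydrogenase, was 4.59-fold higher and *Jmjd6*, a lysyl hydroxylase of the nucleus, 3.59-fold higher. *Ska2*, a kinetochore protein, was 4.90-fold higher and its second probe had a log2 fold change of 0.38. CN-10 and 3-44 lay near the pool for *Arsg* (8.31 and 8.22) and *Hsd17b1* (8.06 and 8.63). For *Ska2* they stood at 12.30 and 12.33, nearer 4-18 (13.10) than the pool (10.81). Among the genes described above, *Sstr2*, which the study names, and *Dhx58* lie in this distal part too.

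On chromosome 15 *Adk*, adenosine kinase, read 11.22, 10.84, 11.44 and 11.31 in 4-18 and 12.68, 12.69, 12.63 and 12.65 in the pool, 2.75-fold lower (limma adjusted p = 2.23e-06). *Comtd1*, a methyltransferase-like protein, was 2.86-fold lower and *Phf11* 4.07-fold lower. *Lcp1*, the gene with the largest rise, lies on the same chromosome, so the lower median did not hold for each gene there. *Itih4*, *Itih3*, *Irs2*, *Slc7a2* and *F10* lie on chromosome 16, as does *Mat1a*, which was not called. On chromosome X the lowest medians of windows of 10 Mb were at 0 to 10 Mb (median -0.51), 130 to 140 Mb (-0.62) and 160 to 170 Mb (-0.57, 19 probes), and the medians of the other windows lay between -0.39 and 0.12. These 3 windows held 7, 8 and 5 of the 53 lower probes of the chromosome. *Aifm1*, a mitochondrial flavoprotein, read 12.67, 12.25, 12.03 and 11.89 in 4-18 and 14.62, 14.27, 14.22 and 14.24 in the pool, 4.37-fold lower (limma adjusted p = 8.49e-07). *Htatsf1*, a splicing factor, was 4.21-fold lower (limma adjusted p = 1.65e-06), and both had levels in CN-10 and 3-44 above those of the pool.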

How the data were processed

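RNA of all 16 cultures was hybridized to one-color (Cy3) Agilent rat arrays. The authors deposited the output of Feature Extraction 10.7.3.1 for each array, with spot and local background intensity on a linear scale, not normalized, and probe positions on rn4. They also deposited a series table of log2 values, which had been background corrected and not scaled between arrays and was used as an alternative only. Here the mean intensity was corrected with normexp (offset 50) on all 42877 gene spots and 1377 control spots, and quantile normalization made the log2 distributions of the arrays equal. Outlier-marked spots (440 to 820 per array) were left out, and spots of a probe were averaged (30367 probes). The 4 group means were estimated together from the 16 arrays (limma 3.58.1, R 4.3.3, empirical Bayes), with Benjamini-Hochberg adjustment over all probes, and was tested on simulated data. The number of arrays limits the precision, and 4 arrays against 4 give an exact permutation p of 0.0286 at the smallest. Motifs were searched on both strands, and matches of different motifs may overlap.

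Genes named were *Pdrg1*, those the study names, the 12 largest changes in each direction among called genes that had a symbol (not an accession, LOC or RGD number or probe ID), groups without overlap and a signal well above background on all arrays of the higher group, and up to 4 called and 2 uncalled members of each list. Members and lists were chosen with earlier results of these data known. Each gene was read by its probe with the highest mean. Not all genes that these rules name are reported here. Of 148 such genes, 139 had an accession in the gene table (7 under another symbol), and the arrays' names were kept. Exons were not assigned, as no rn4 annotation was used. Alternatives covered background correction, scaling, the fold limit, array weights, a replicate block and left-out arrays. The submitters' processing notes name limma.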

Additional observations from a re-analysis of the deposited data

Results flagged for a closer look

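On 21 of 294 sets of 4 arrays, 1 array lay so far from the other 3 that its gap passed Dixon's critical value, and chance alone gives about 1 in 20. Of these arrays 9 were replicate 1 of shRNA3T, 5 replicate 1 of 4-18, 3 replicate 2 of 4-18, 2 replicate 4 of shRNA3T, 1 replicate 2 of shRNA3T and 1 replicate 3 of 4-18. All values are normalized log2 intensities. *Pdrg1* read 11.57 on replicate 1 of 4-18, with the other 3 between 13.25 and 13.34, and 12.39 on replicate 1 of shRNA3T, with the others between 12.90 and 12.97.

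Other values on replicate 1 of shRNA3T were low for *Mro* (8.17), *Kng1* (10.04), *Gstm3* (8.64) and *Cdh17* (13.73) and high for *Fbp1* (11.31), *Vegfa* (15.36), *Ndufb10* (16.44) and *Aifm1* (14.62). On replicate 1 of 4-18 *Lcp1* was low (11.92), and *Fabp1* (8.22), *Fbp1* (12.87) and *Slc39a14* (8.71) were high. On replicate 2 of 4-18 *Serpina1* (13.41) and *Sema4a* (13.004) were low and *Ly6d* (7.53) was high, and on its replicate 3 *Saa4* was low (7.26). In the pool, replicate 4 was high for *Aacs* (10.12) and *C5* (11.50), and replicate 2 was low for *Cyp1a2* (7.47).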

How the results depend on the processing

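Over 31 alternatives, 3 of them chosen after seeing the data, 72 of the 131 called genes that the naming rule picked kept direction and call in each one, 59 lost the call in at least 1 and none changed direction. Of genes not called, *Adm* gained a call in 12, *Cebpb* in 7, *Mat1a* in 4 and *Sema3c* in 4. The counts depended on scaling. The median of all genes shifted by 0.95 with arrays scaled to their 75th percentile, 0.62 with that scaling and 2 spots of high local background left out, 0.29 with the scanner's processed signal and 0.23 with the deposited log2 values. Genes called were 13894 (13314 higher) at the 75th percentile, 4649 (94 higher, 4555 lower) once the shift was removed, 2768 (2074 higher) without the 2 spots, 4922 (3771 higher, 1151 lower) with the processed signal and 2823 (141 higher, 2682 lower) with the deposited values as they stand. A 1.5-fold limit gave 3624 (1832 and 1792) and no fold limit 5737 (3194 and 2543), with a gene counted by any of its probes. The cause of the differences between scalings was not tested. Leaving out 1 array or replicate number gave 1228 to 1511 genes, 459 to 603 higher and 716 to 908 lower.

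*Pdrg1* was -0.88 at the 75th percentile with the shift removed, -0.63 with the deposited values and -0.34 without replicates 2 and 4 of 4-18, and ran from -0.075 to 0.52 with 1 array or number left out. Other genes not called in the main comparison also changed sign, and of these values that of *Ctgf* at the 75th percentile (adjusted p = 0.0173) passed both limits. With the shift removed, *Acadm* was -0.66, *Lipc* -0.85, *Id1* -0.81, *Ctgf* 0.34, *Alb* -0.82, *Afp* -0.23, *Ttr* -0.38, *Cebpa* -0.39 and *Socs3* -0.22. With the deposited values *Acadm* was -0.43, *Lipc* -0.62, *Id1* -0.57, *Ctgf* 0.57, *Alb* -0.58, *Afp* -0.0014, *Ttr* -0.10 and *Cebpa* -0.17. At the 75th percentile *Aacs* was 0.024, *Ctgf* 1.29 (0.78 without the 2 spots) and *Hnf4a* 0.34. With the processed signal *Id1* was -0.011, *Ctgf* 0.53 and *Alb* -0.29, with cyclic loess *Ctgf* was 0.083 and with array weights *Alb* was -0.059. Without replicates 2 and 4 of 4-18 *Id1* was -0.17. With 1 array or number left out, *Alb* ran from -0.16 to 0.20, *Aacs* from -0.10 to 0.0037, *Id1* from -0.047 to 0.25, *Stat3* from -0.54 to 0.091 and *Lipc* from -0.030 to 0.17.

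Same-numbered arrays of clone and pool deviated together with correlations of 0.175, -0.0207, 0.0751 and 0.0576, of which 1 was over 0.1, so the numbers were not taken as pairs. Of the 4 clone arrays 3 correlated best with the pool array of their own number, a hint from the data and not from the design. With the replicate number as a block 1300 genes were called (524 higher, 776 lower), and *Pdrg1* stayed at 0.08. The arrays of 4-18 were dimmer than those of the pool, which limits what can be read of genes near background.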

Other observations

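Further gene groups held few called genes. Of 24 hypoxia genes 2 rose and 3 fell (8.33% and 12.5%, against 1.86% and 2.70% of all genes). *Vegfa*, the vascular growth factor, was 2.68-fold lower on its brightest probe (limma adjusted p = 0.000107), while its other 3 probes had log2 fold changes of -0.55, -0.07 and -0.01. *Higd1a*, a mitochondrial protein, was 2.34-fold higher. Of 32 mesenchymal and cytoskeletal genes 3 fell and none rose (9.38% lower, against 2.70% of all genes), among them *S100a6*, a calcium-binding protein, which read 12.08, 11.92, 11.88 and 11.81 in 4-18 and 14.92, 14.75, 14.83 and 14.76 in shRNA3T, 7.41-fold lower (limma adjusted p = 6.02e-10). *Cldn2*, a tight junction claudin, was 3.39-fold lower, and its second probe had a log2 fold change of -0.69. Of 31 chemokines and NF-kB targets 3 fell (9.68%) and none rose. *Cxcl2*, a chemokine, was 2.43-fold lower and was well above background on 2 of 4 clone arrays. None of 27 RNA polymerase subunits was called, against 4.56% of all genes. Of 12 chaperonin subunits 1 fell (8.33%, against 2.70% of all genes), *Cct4*, 3.04-fold lower.

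In all, 13 called genes were above background in 4-18 and on no array of shRNA3T, and 22 the other way round. *Vtn*, vitronectin of plasma and matrix, was among the 22, at least 2.48-fold lower (limma adjusted p = 5.24e-05, with the call lost in 3 alternatives and a log2 fold change of -3.64 to -0.35), and it was at 6.22 in CN-10 and 6.46 in 3-44. *Lyz2*, lysozyme, was the 1 leukocyte marker of 18 that was called (5.56%, against 4.56% of all genes), 2.68-fold lower, with the spot of pool replicate 1 left out.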
